A study of Homo sapiens with 6 samples.

Results

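Kinesins are motor proteins that use ATP to move along microtubules or to take microtubules apart. The genes described here are all rows of the deposited count table whose symbol has the form KIF or KIFC followed by a number and at most one letter from A to C. The table held 42 such rows among 61860. By the known role of the protein, 15 were classed as mitotic kinesins, 15 as transport kinesins and 12 as other kinesins, most of which act in cilia, signalling or microtubule dynamics.

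Kinesins share a motor domain and differ in the tail, which binds the cargo or partner. Mitotic kinesins build the bipolar spindle, move and align chromosomes and organise the central spindle for cytokinesis, and most of their transcripts are known to be made mainly in G2 and M phase. Transport kinesins carry vesicles, mitochondria, endosomes and mRNA toward the cell periphery, or in the case of the C-type kinesins KIFC2 and KIFC3 toward the cell centre, and are used by dividing and resting cells alike.

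RNA was sequenced from 786-O cells, an established human line of clear cell renal carcinoma without functional VHL, after depletion of ribosomal RNA. The control group expressed a control short hairpin RNA (shRNA) and the knockdown group an shRNA against METTL3, the methyltransferase that places N6-methyladenosine (m6A) on mRNA. In both groups the hairpin was expressed stably. Each group held 3 libraries, called A, B and C after their columns. The columns of the knockdown group carry only a construct number and were given to that group by elimination. METTL3 itself had 3874, 4060 and 4141 counts in the control libraries and 1064, 956 and 1145 in the knockdown libraries, a log2 fold change of −1.80 (SE 0.08). The labels name 1 shRNA target and no second hairpin, and they do not say whether the libraries of a group were separate cultures, so the tests measure the spread between libraries, which may be technical in origin.

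Depth was even, at 100534896 to 103624456 counts per library. Transcripts of the mitochondrial genome took 4.46% ± 0.27 (SD, n = 3) of the control counts and 8.11% ± 0.37 (SD, n = 3) of the knockdown counts. The renal markers PAX8 (77.9 and 98.2 FPKM in control and knockdown) and PAX2 (14.6 and 12.05 FPKM) were present, whereas the epithelial markers CDH1 (at most 11 counts in a library) and EPCAM (0.48 and 0.44 FPKM) were nearly absent. The epithelial keratins KRT8 (132 and 129 FPKM) and KRT18 (98.8 and 88.5 FPKM) were abundant in the same cells, which the labels call epithelial. FPKM are fragment counts scaled by transcript length and library total. The leukocyte marker CD3E had 0 counts in all libraries, although CD68 reached 43.2 and 79.3 FPKM, and none of 4 endothelial markers exceeded 6 counts. Of 5 fibroblast markers 3 were tested, of which PDGFRB (log2 −1.21) and LUM (−1.57) fell and COL1A1 (−0.45) did not pass, and their summed level was 1.17 to 1.63 FPKM in the control libraries and 0.42 to 0.92 FPKM in the knockdown libraries. Of 6 neuronal markers 5 were tested (median log2 fold change 0.31), of which RBFOX3 rose (0.59) and TUBB3 fell (−0.48), whereas MAP2 (0.03), SNAP25 (0.31) and SYP (0.47) did not pass. The neuronal marker SYN1 had at most 5 counts.

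Of the 42 kinesin genes, 35 had enough counts to be tested. The 7 others were KIF2B and KIF4B of the mitotic class, KIF1A of the transport class, and KIF19, KIF21B, KIF25 and KIF26A. KIF1A and KIF2B had 0 counts in every library. KIF21B was counted 1, 2 and 2 times in the control libraries and 6, 6 and 7 times in the knockdown libraries. The remaining 4 had at most 11 counts in any library. Mitotic kinesins, transport kinesins and the other class passed the filter with 13, 14 and 8 members.

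Mitotic kinesins rose almost throughout in the METTL3 knockdown libraries, whereas most transport kinesins did not change past the test. Of the 13 mitotic kinesins tested, 12 rose and 0 fell, and of the 14 transport kinesins tested, 1 rose, 1 fell and 12 did not pass (quasi-likelihood test of edgeR, p adjusted over 18740 genes by Benjamini-Hochberg, threshold 0.05). Over all genes tested 16.5% rose and 16.9% fell, together 33.5%. The kinesin classes were chosen with earlier results of these data known, so the split between them is not independent evidence. The median log2 fold change was 0.65 for the mitotic class (range −0.06 to 1.601), −0.01 for the transport class (−1.45 to 0.33) and −0.0030 for all genes. In 12 of 13 mitotic kinesins every knockdown library lay above every control library, which was so for 23.4% of all genes, and in 47.4% of all genes the groups did not overlap in one direction or the other. Since bulk RNA was measured, a larger share of cells in mitosis and more RNA per cell cannot be told apart.

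**Figure D1:**
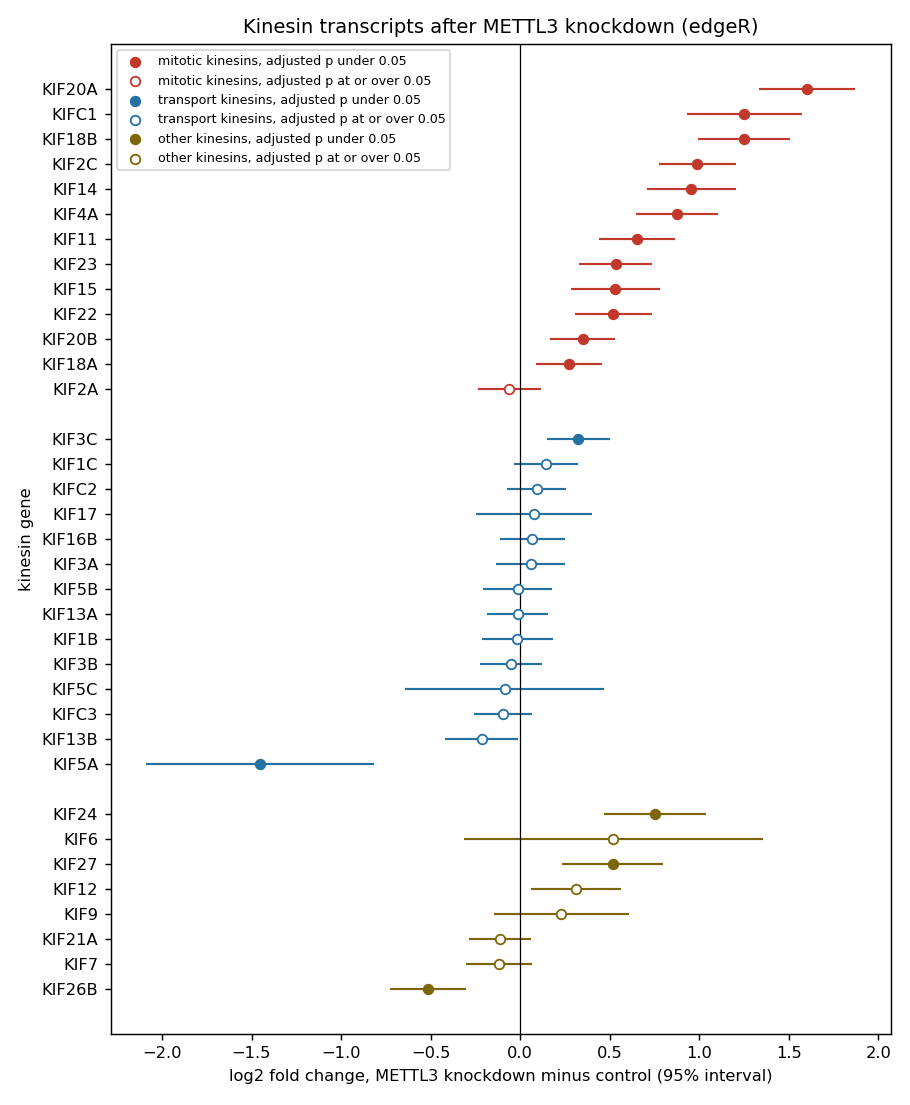
Log2 fold change (METTL3 knockdown minus control, horizontal axis) with its 95% interval for the 35 kinesins tested, grouped by class, where filled points passed an adjusted p of 0.05. The mitotic kinesins lie to the right of 0 except KIF2A, the transport kinesins lie around 0 except KIF3C and KIF5A, and the other class is mixed.

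The largest rise was that of KIF20A, which brings the chromosomal passenger complex with Aurora B to the central spindle. KIF20A (chromosome 5, 138178719 to 138187715, GRCh38) stood at 7.06, 6.44 and 5.57 CPM in libraries A to C of the control group, and at 21.1, 21.05 and 15.7 CPM in those of the knockdown group, where CPM are counts scaled to the library total and by TMM. The groups did not overlap, and the fold change was 3.03 (log2 1.601, SE 0.13, edgeR adjusted p = 8.19e-06). Its exons overlap those of CDC23 and BRD8 on the opposite strand, and no source used here tells if strand was used in counting, so its counts are less certain.

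KIFC1 (chromosome 6, 33391536 to 33409924), a minus-end motor that bundles spindle microtubules and clusters extra centrosomes, had 19.4, 17.6 and 13.3 CPM in the control libraries A to C. It had 43.7, 45.4 and 30.8 CPM in the knockdown libraries, a 2.38-fold rise (log2 1.253, SE 0.15, edgeR adjusted p = 9.97e-05). All 3 knockdown libraries were higher than the highest control library, and library C was the lowest of its group on both sides. KIF18B (chromosome 17, 44924709 to 44947711), which shortens astral microtubules at their plus ends, had 9.46, 9.14 and 7.56 CPM in the control libraries and 20.4, 24.1 and 17.7 CPM in the knockdown libraries. There was no overlap, with a log2 fold change of 1.2502 (SE 0.12, edgeR adjusted p = 3.22e-05).

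KIF2C (chromosome 1, 44739818 to 44767767), the centromere-bound depolymerase that corrects faulty chromosome attachments, was an abundant mitotic kinesin. Its level was 40.9, 38.0 and 32.4 CPM in the control libraries and 77.5, 78.1 and 65.4 CPM in the knockdown libraries, a log2 fold change of 0.99 (SE 0.10, edgeR adjusted p = 4.39e-05). KIF14, which works with citron kinase in the midbody, was a low-level transcript with 5.92, 5.58 and 4.90 CPM against 10.5, 12.1 and 9.27 CPM (log2 0.96, SE 0.12). In neither gene did the groups overlap. KIF4A, a chromosome-bound motor that with PRC1 sets the length of the central spindle, had 18.2, 16.9 and 14.3 CPM in the control libraries and 30.9, 33.4 and 26.3 CPM in the knockdown libraries (log2 0.87, SE 0.11). KIF11, the motor that pushes the spindle poles apart, had 17.7, 18.0 and 14.4 CPM against 26.2, 28.4 and 24.3 CPM (log2 0.65, SE 0.10). Both were higher in all knockdown libraries than in any control library. Exons of KIF2C, KIF22 and KIF23 overlap an antisense RNA on the opposite strand. Also on the opposite strand, those of KIFC1 overlap the pseudogene RPL12P1, those of KIF4A overlap PDZD11 and those of KIF18A overlap METTL15. KIF4B is a near-identical intronless copy of KIF4A, and had at most 2 counts.

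**Figure D2:**
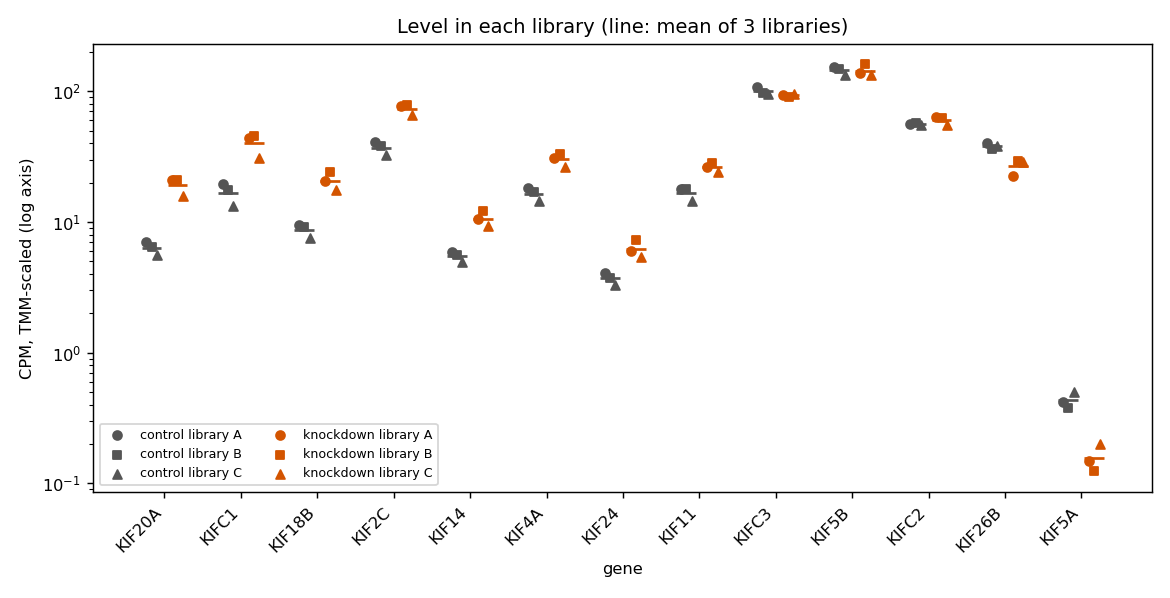
Level of 13 kinesins in each of the 6 libraries (TMM-scaled CPM, log axis), with the marker shape giving the library letter and the line the mean of 3. The 8 genes on the left (KIF20A to KIF11, with KIF24 among them) are higher in every knockdown library, KIFC3, KIF5B and KIFC2 overlap between the groups, and KIF26B and KIF5A are lower.

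Further mitotic kinesins had smaller fold changes. KIF23, the motor of the centralspindlin complex, had 29.97, 29.6 and 24.1 CPM in the control libraries and 39.3, 43.9 and 38.0 CPM in the knockdown libraries (log2 0.53, SE 0.10). KIF22, a chromosome arm motor, was the most abundant mitotic kinesin per length at 23.8 FPKM in the control group, and went from 45.1, 40.9 and 37.6 CPM to 64.5, 62.5 and 50.4 CPM (log2 0.52, SE 0.10). Each of these rises was larger than the spread within the groups. KIF15, which can stand in for KIF11, had a log2 fold change of 0.53 (SE 0.12). On the deposited FPKM values, tested with limma on log2(FPKM + 1), the calls of KIF15, KIF20B and KIF18A were lost and 9 mitotic kinesins were called.

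Related motors stood apart in the size of their fold changes. KIF20B, a second motor of late cytokinesis, had 26.5, 27.2 and 24.8 CPM in the control libraries and 32.7, 36.7 and 30.7 CPM in the knockdown libraries. Its log2 fold change was 0.35 with a 95% interval of 0.17 to 0.53, against 1.33 to 1.87 for KIF20A. Per length, the ratio of KIF20A to KIF20B went from 0.517, 0.466 and 0.434 in the control libraries A to C to 1.199, 1.10 and 1.002 in the knockdown libraries, so the lower-level motor of the pair in the control libraries was at or above the level of the other in the knockdown libraries.

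KIF18A, which damps the oscillations of chromosomes at the metaphase plate, had 12.7, 14.04 and 12.03 CPM in the control libraries and 16.03, 15.6 and 15.3 CPM in the knockdown libraries. Its log2 fold change of 0.27 (95% interval 0.09 to 0.46, edgeR adjusted p = 0.0255) was the smallest that passed in this class, and the interval of KIF18B was 0.99 to 1.51. The groups of KIF18A did not overlap. Leaving out control A, control C, knockdown A or knockdown B ended the call of KIF18A (edgeR adjusted p between 0.0687 and 0.0944), as did scaling by library size alone (edgeR adjusted p = 0.165). KIF2A, a relative of KIF2C that acts at spindle poles and also outside mitosis, had 39.2, 41.6 and 40.1 CPM in the control libraries and 35.5, 42.3 and 38.2 CPM in the knockdown libraries. It did not pass, at −0.06 with a 95% interval of −0.23 to 0.11, and was the only mitotic kinesin tested that did not. Its exons overlap those of IPO11 on the same strand. The ratio of KIF2C to KIF2A in FPKM was 1.96, 1.82 and 1.52 in the control libraries and 4.25, 3.58 and 3.23 in the knockdown libraries. The difference in fold change within these pairs was not itself tested.

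The level of the mitotic kinesins was not the same in each library of a group. Library C was the lowest of the 3 control libraries for 12 of the 13 mitotic kinesins, and library C was the lowest of the 3 knockdown libraries for 12 of 13. Among transport kinesins control library C was the lowest for 4 of 14 and knockdown library C for 6 of 14. The median distance of the mitotic kinesins from their control mean, on the log2 CPM scale, was 0.12, 0.06 and −0.19 in the control libraries A to C and 0.65, 0.77 and 0.55 in the knockdown libraries. Thus the lowest knockdown library stood above the highest control library. Leaving out each library in turn gave 11 or 12 mitotic kinesins higher.

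**Figure D3:**
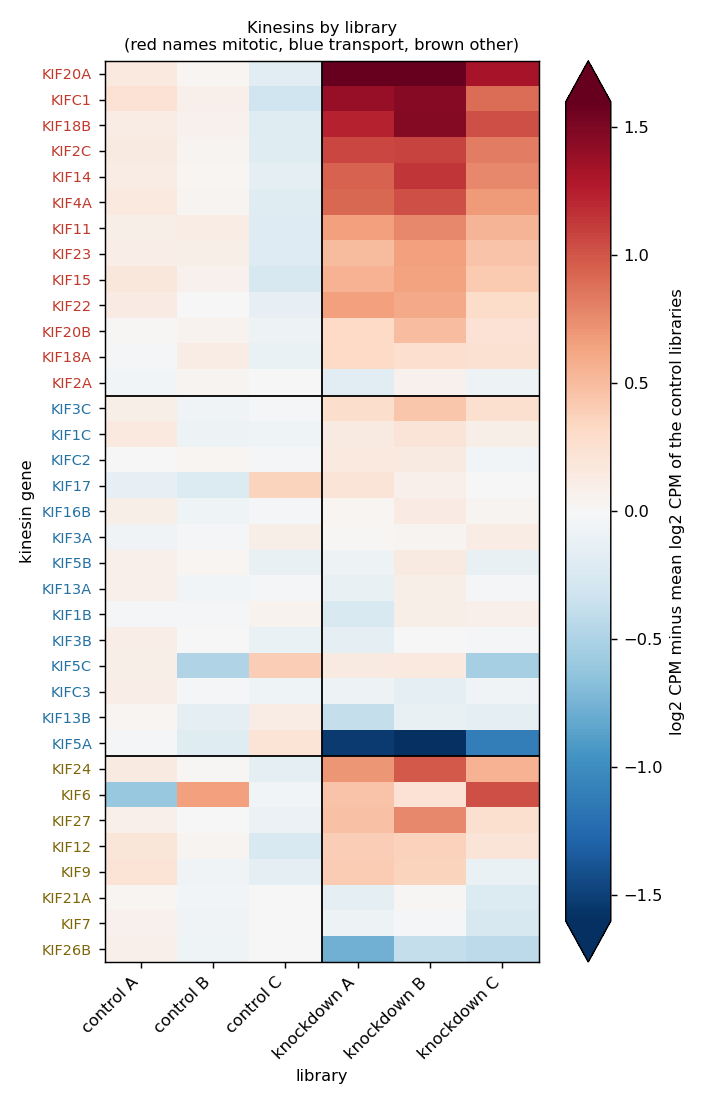
Log2 CPM of each tested kinesin in each library minus its mean over the 3 control libraries, with rows grouped by class and colours limited to 1.6 in both directions. The upper block of mitotic kinesins is red in all 3 knockdown libraries, palest in library C for most, down to KIF2A. The transport block is pale except KIF5A, which is blue in the knockdown libraries, and KIF5C, which is mixed.

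Transcripts of proteins that work beside the mitotic kinesins moved in the same direction. Of 22 spindle and cytokinesis partners tested, 19 rose and 0 fell, beside 16.5% of all genes higher and 16.9% lower. The median log2 fold change of the partners was 0.67. The kinases AURKB (1.255, SE 0.14), PLK1 (0.89, SE 0.10) and AURKA (0.68, SE 0.08) and the centralspindlin subunit RACGAP1 (0.73, SE 0.08) had the smallest p-values. Citron kinase CIT, the partner of KIF14, rose by 1.11 (SE 0.13) and PRC1, the partner of KIF4A, by 0.66 (SE 0.11). The kinetochore kinesin CENPE, which the symbol rule leaves out, rose by 0.39 (SE 0.09). NUMA1 (0.21), ECT2 (0.19) and CKAP5 (0.16) did not pass. Some of these genes were already known to be higher in these libraries when the list was drawn up, so its direction is not independent evidence.

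Most of the listed markers of proliferation were also higher in the knockdown group. Of 12 such genes, 9 were higher and 1 lower, beside 16.5% of all genes higher and 16.9% lower. This list too was chosen with earlier results of these data known, so its direction is not independent evidence. The summed level of the 12 ran from 364 to 372 FPKM in the control libraries and from 398 to 429 FPKM in the knockdown libraries. MKI67 had a log2 fold change of 1.09 (SE 0.15), the mitotic transcription factor FOXM1 one of 1.30 (SE 0.13) and CDK1 one of 0.99 (SE 0.11). PCNA, the DNA polymerase clamp of S phase, was at 0.03 (SE 0.08), and LIN9, a subunit of the MuvB complex, was at −0.0048 (SE 0.09). E2F4, a repressor of cell cycle genes in resting cells, was the member that fell (−0.39, SE 0.08). The part of cell cycle distribution in the kinesin result was not tested. With the mitochondrial transcripts left out before scaling, the number of mitotic kinesins higher was 12.

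Promoters of many mitotic genes carry a cell cycle genes homology region (CHR), bound by MuvB complexes, together with the CCAAT box bound by NF-Y. RefSeq windows of 300 bases (250 before and 50 after the transcript start, GRCh38.p14) were found for 34 of the 42 kinesins, among them all 15 of the mitotic class. They were searched on both strands for the CHR spelling TTTGAA, its variant TTCGAA and the form TTTAAA, and for the CCAAT box. The forms TTCGAA and, likewise, TTTAAA read the same on both strands, and a CHR spelling and a CCAAT box may share a base at their ends. A CHR spelling was present for 13 of 15 mitotic kinesins, 2 of 11 transport kinesins and 1 of 8 others, beside 29.03% of all 27305 genes with a window. Both a CHR spelling and CCAAT were present for 11 mitotic kinesins, 1 transport kinesin (KIF5B) and 1 other kinesin (KIF24), beside 11.7% of all genes. The 2 mitotic kinesins without a CHR spelling were KIF2A, which did not pass the test, and KIF2B, which had 0 counts. KIF15 and KIF2C had a CHR spelling and no CCAAT. Within the mitotic class, KIF4B held both and had at most 2 counts in a library. Outside the mitotic class, KIF3C rose with neither motif in its window, and KIF5B held both and did not pass (log2 −0.01). No window was found for KIF27, which rose, or for KIF26B and KIF5A, which fell.

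The windows of the 3 kinesins with the largest rises are printed here with that of KIF23, where the motifs lie next to each other, with that of KIF24, the member of the other class that held both motifs, and with that of KIF2A, the tested mitotic kinesin that held neither. Capitals mark the matches, read 5′ to 3′ on the strand of the gene, so that ATTGG stands for a CCAAT box on the other strand, and likewise TTCAAA for the spelling TTTGAA.
KIF20A, chr5:138178862-138179161, plus strand: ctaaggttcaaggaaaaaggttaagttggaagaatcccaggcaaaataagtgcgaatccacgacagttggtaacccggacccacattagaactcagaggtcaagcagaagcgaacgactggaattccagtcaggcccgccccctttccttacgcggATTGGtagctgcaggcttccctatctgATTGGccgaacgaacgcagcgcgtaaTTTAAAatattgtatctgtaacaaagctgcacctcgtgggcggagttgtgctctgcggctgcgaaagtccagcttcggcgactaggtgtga
KIFC1, chr6:33391573-33391872, plus strand: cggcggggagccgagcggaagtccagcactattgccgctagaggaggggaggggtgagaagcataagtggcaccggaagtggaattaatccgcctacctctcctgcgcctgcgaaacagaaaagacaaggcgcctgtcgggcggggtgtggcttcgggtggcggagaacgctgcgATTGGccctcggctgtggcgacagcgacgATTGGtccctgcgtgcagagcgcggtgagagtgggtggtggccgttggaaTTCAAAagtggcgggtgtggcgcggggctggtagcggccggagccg
KIF18B, chr17:44947724-44948023, minus strand: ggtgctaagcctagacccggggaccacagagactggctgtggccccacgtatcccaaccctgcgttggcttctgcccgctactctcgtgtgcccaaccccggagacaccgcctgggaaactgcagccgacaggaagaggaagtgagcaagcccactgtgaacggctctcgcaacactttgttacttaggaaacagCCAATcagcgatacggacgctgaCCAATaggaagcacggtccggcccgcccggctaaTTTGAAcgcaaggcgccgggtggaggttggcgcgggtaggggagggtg
KIF23, chr15:69414099-69414398, plus strand: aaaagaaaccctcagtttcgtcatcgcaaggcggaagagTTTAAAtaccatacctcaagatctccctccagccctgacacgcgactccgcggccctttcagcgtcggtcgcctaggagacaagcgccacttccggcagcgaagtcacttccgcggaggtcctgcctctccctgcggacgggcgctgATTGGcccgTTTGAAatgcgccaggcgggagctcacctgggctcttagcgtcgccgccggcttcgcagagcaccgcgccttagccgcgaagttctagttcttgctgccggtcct
KIF24, chr9:34329219-34329518, minus strand: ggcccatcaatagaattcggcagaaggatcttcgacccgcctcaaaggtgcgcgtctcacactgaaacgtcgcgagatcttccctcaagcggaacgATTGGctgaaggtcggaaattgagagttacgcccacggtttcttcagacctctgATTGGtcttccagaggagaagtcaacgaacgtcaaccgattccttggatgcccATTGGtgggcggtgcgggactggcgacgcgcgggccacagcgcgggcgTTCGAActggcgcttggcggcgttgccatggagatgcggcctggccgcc
KIF2A, chr5:62305956-62306255, plus strand: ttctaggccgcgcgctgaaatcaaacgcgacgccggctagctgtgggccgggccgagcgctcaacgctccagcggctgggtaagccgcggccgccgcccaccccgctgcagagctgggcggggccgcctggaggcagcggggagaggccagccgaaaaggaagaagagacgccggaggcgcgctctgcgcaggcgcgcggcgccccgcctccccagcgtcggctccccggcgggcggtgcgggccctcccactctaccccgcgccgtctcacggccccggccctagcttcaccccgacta
In KIF20A the CHR spelling spans positions −41 to −36 from the start, after CCAAT boxes that begin at −94 and −67. In KIF18B the boxes begin at −55 and −32 and the CHR spelling at 3, and in KIFC1 they begin at −75 and −46 and the CHR spelling at 5. The whole windows of KIF18B (44947724 to 44948023) and KIF24 (34329219 to 34329518) lie upstream of their GENCODE 29 gene starts at 44947711 and 34311371. The windows of KIF20A and KIFC1 lie inside their GENCODE 29 genes, which start at 138178719 and 33391536. Positions before the RefSeq start of these genes thus lie after the GENCODE 29 start. A match is a description of these letters and does not show that a factor binds there.

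**Figure D4:**
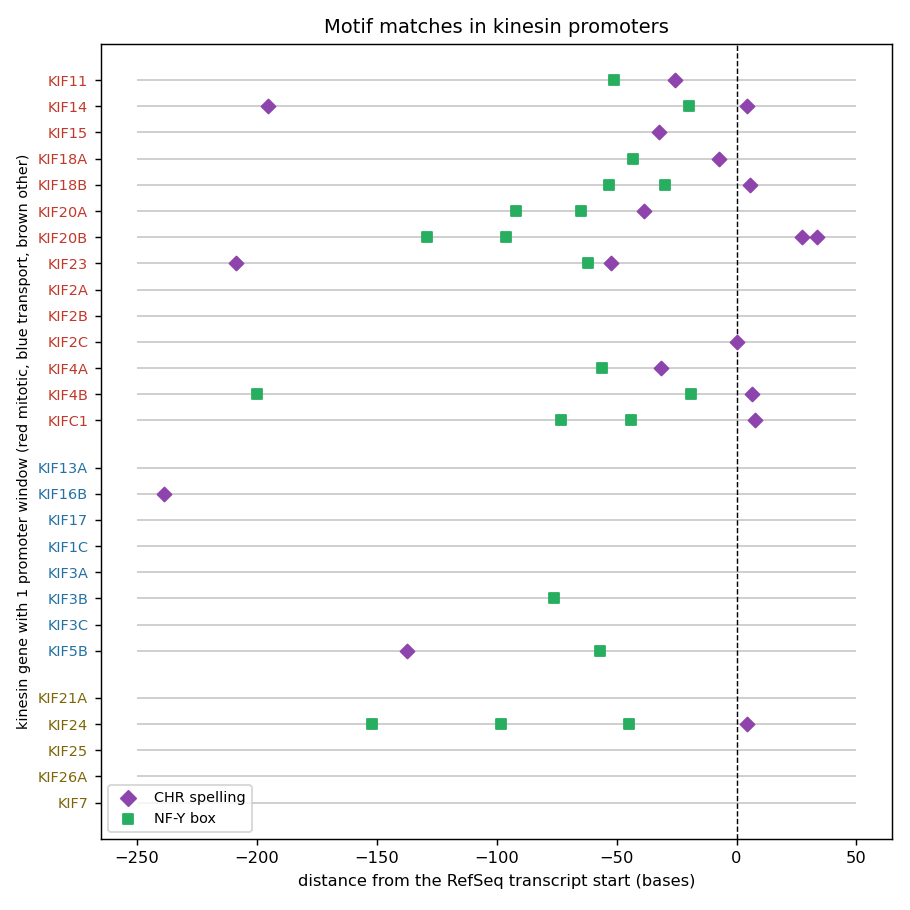
Position of CHR spellings (diamonds) and NF-Y boxes (squares) against distance from the RefSeq transcript start in bases, for the 27 kinesins with exactly 1 window. In the mitotic class (top) most windows hold a square followed by a diamond near the start, whereas KIF2A and KIF2B hold neither, as do most transport kinesins.

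Transport kinesins made up the larger part of kinesin transcripts in the control cells. Per length, the most abundant of all 42 genes were KIFC3 at 49.3 FPKM, KIF5B at 26.9 FPKM and KIF22 at 23.8 FPKM in the control group, and KIFC2 was close to KIF22 at 22.7 FPKM. The mitotic class held 33.7%, 34.2% and 31.3% of the summed kinesin FPKM in the control libraries A to C and 46.5%, 45.6% and 42.1% in the knockdown libraries. The summed level of the transport class was 169, 164 and 164 FPKM in the control libraries and 145, 158 and 156 FPKM in the knockdown libraries. On this scale the transport sums of the groups did not overlap. FPKM are scaled to the library total, and on that scale the median gene was lower in the knockdown group (−0.11 with library size scaling, −0.0030 with TMM).

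**Figure D5:**
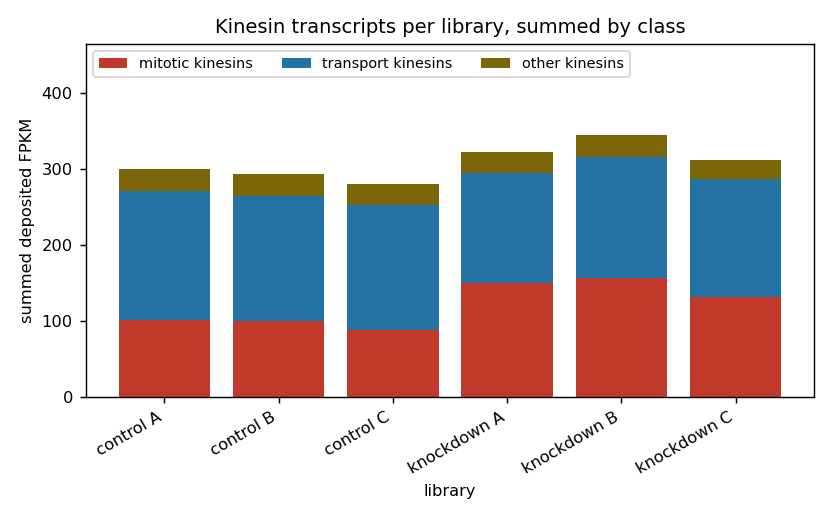
Summed deposited FPKM of the mitotic, transport and other kinesins in each of the 6 libraries (stacked bars from 0). The mitotic part runs from 87.7 to 101 in the control libraries and from 131 to 157 in the knockdown libraries, and the transport part is somewhat lower in the knockdown libraries.

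Among the heavy chains of kinesin-1, the main motor of anterograde transport, KIF5B did not change past the test and KIF5A fell. KIF5B had 154, 148 and 134 CPM in the control libraries and 137, 161 and 134 CPM in the knockdown libraries, and its log2 fold change was −0.01 with a 95% interval of −0.21 to 0.18. KIF5A (chromosome 12, 57549998 to 57586632), the heavy chain typical of neurons, was low, with 44, 40 and 55 counts in the control libraries and 14, 12 and 20 counts in the knockdown libraries. The count groups did not overlap, as in 23.9% of all genes on the lower side. Its log2 fold change was −1.45 (SE 0.29, edgeR adjusted p = 0.00255), the largest fall of any kinesin, from 0.43 ± 0.06 to 0.16 ± 0.04 CPM (SD, n = 3 each). In the deposited FPKM values the groups overlapped, at 0.26, 0.39 and 0.20 in the control libraries and 0.23, 0.09 and 0.19 in the knockdown libraries, so this call rests on the count table. The summed level of the 6 neuronal markers ran from 91.8 to 97.1 FPKM in the control libraries and from 79.2 to 84.9 FPKM in the knockdown libraries. Of these markers TUBB3 fell, RBFOX3 rose and the 3 others tested did not pass, and their part in the KIF5A result was not tested. KIF5C had 0.79, 0.53 and 0.96 CPM against 0.82, 0.82 and 0.51 CPM and did not pass (95% interval −0.64 to 0.47).

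In the kinesin-2 family, which drives intraflagellar and vesicle transport, KIF3C was the transport kinesin that rose. It lies on chromosome 2, 25926596 to 25982749. KIF3C had 29.4, 26.5 and 27.04 CPM in the control libraries and 33.4, 37.5 and 32.9 CPM in the knockdown libraries, without overlap (log2 0.33, SE 0.08, edgeR adjusted p = 0.00818). Scaling by library size ended the call (edgeR adjusted p = 0.0579), as did the limma tests on FPKM. Its partners and relatives did not pass, with KIF3A at 0.06 (95% interval −0.13 to 0.25), KIF3B at −0.05 (−0.23 to 0.12) and the homodimeric KIF17 at 0.08 (−0.25 to 0.40). KIF3A had 9.04, 9.19 and 10.03 CPM in the control libraries and 9.49, 9.74 and 10.2 CPM in the knockdown libraries, and KIF3B 71.2, 65.8 and 61.1 CPM against 59.6, 66.3 and 64.9 CPM. The adaptor of the family, KIFAP3, was at 0.04 (SE 0.08).

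The C-type and kinesin-3 motors of the transport class showed no change past the test. KIFC3, known from cell junctions and the Golgi, had 107, 97.2 and 95.04 CPM in the control libraries and 94.05, 90.4 and 95.5 CPM in the knockdown libraries (95% interval −0.26 to 0.07). KIFC2 had 56.5, 57.5 and 55.3 CPM against 63.2, 62.4 and 55.0 CPM (−0.07 to 0.26). In both genes the groups overlapped. KIF1B, a carrier of mitochondria and synaptic vesicle precursors, was at −0.01 (95% interval −0.21 to 0.18), and KIF1C at 0.15 (−0.03 to 0.32). KIF13A, which moves recycling endosomes, was at −0.01 (−0.18 to 0.16), KIF13B at −0.21 (−0.42 to −0.01, edgeR adjusted p = 0.0961) and the early endosome motor KIF16B at 0.07 (−0.11 to 0.25). With library size scaling, 0 transport kinesins rose and 3 fell, KIF5A joined by KIF13B (−0.32) and KIFC3 (−0.20). Exons of KIFC3, KIFC2, KIF1C, KIF13B and KIF3A overlap those of other genes on the opposite strand, FOXH1 in the case of KIFC2. Those of KIF1B overlap RN7SL731P on the same strand, so the counts of these genes are less certain.

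Of 19 transport adaptors and light chains tested, 1 rose, 3 fell and 15 did not pass (median 0.04), beside 33.5% of all genes called in either direction. The scaffolds MAPK8IP1 (−0.58, SE 0.10) and MAPK8IP2 (−0.64, SE 0.12) and the light chain KLC2 (−0.31, SE 0.07) fell, whereas TRAK2, which links kinesin-1 to mitochondria, rose (0.30, SE 0.10). The light chains KLC1 (−0.13), KLC3 (−0.10) and KLC4 (0.20) did not pass. JAKMIP1 had 0 counts and was not tested.

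Cytoplasmic dynein, the opposing minus-end motor, was measured by 28 genes, of which 4 rose, 9 fell and 15 did not pass (median −0.09), beside 16.5% of all genes higher and 16.9% lower. NDE1, a dynein regulator that also acts at kinetochores, rose by 0.83 (SE 0.10), and ACTR1B (0.59), BICD1 (0.41) and the kinetochore adaptor SPDL1 (0.25) rose as well. The light chain DYNLL1 (−0.49, SE 0.08) and the light intermediate chain DYNC1LI1 (−0.45, SE 0.08) fell, and the heavy chain DYNC1H1 was at −0.07 (SE 0.10). The number changed was 8 without control library B or knockdown library B. Of 18 tubulin genes tested, 2 rose and 4 fell, together a share near the 33.5% of all genes. TUBB3 (−0.48), TUBB2A (−0.46), TUBB2B (−0.48) and TUBA4A (−0.38) fell, and the abundant TUBB (0.37) and TUBA1B (0.38) rose. Several tubulin genes are near-identical in sequence, so reads may have been divided between them and these values are uncertain.

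Of the 8 other kinesins tested, 2 rose, 1 fell and 5 did not pass, so the share called was near the 33.5% of all genes. KIF24 (chromosome 9, 34252381 to 34311371), a centriolar kinesin that restrains the growth of primary cilia, had 4.07, 3.72 and 3.30 CPM in the control libraries and 6.02, 7.27 and 5.44 CPM in the knockdown libraries. Its log2 fold change was 0.76 (SE 0.13, edgeR adjusted p = 0.00104), without overlap, and KIF24 was also the member of this class whose promoter window held both motifs. Its exons overlap those of UBAP1 on the opposite strand, and those of KIF7 overlap TICRR and those of KIF27 overlap antisense RNAs in the same way. KIF27, a relative of KIF7, rose by 0.52 (SE 0.13, edgeR adjusted p = 0.00908) from 4.65 ± 0.28 to 6.65 ± 1.21 CPM (SD, n = 3 each), a call lost without knockdown library B (log2 0.37, edgeR adjusted p = 0.0573). In the limma tests on FPKM, where the groups overlapped, its log2 fold change was between 0.18 and 0.31 and the call was also lost (adjusted p from 0.234 to 0.440).

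KIF26B (chromosome 1, 245154985 to 245709431), an atypical kinesin that takes part in Wnt5a signalling and in kidney development, was the member of this class that fell. It had 40.5, 36.3 and 37.9 CPM in the control libraries and 22.4, 29.2 and 28.6 CPM in the knockdown libraries (log2 −0.52, SE 0.10, edgeR adjusted p = 0.00186). All 3 knockdown libraries were lower than the lowest control library, and library A was the lowest. Its relative KIF26A had at most 4 counts in a library.

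KIF21A, KIF7 and KIF12 were the most abundant of the other class per length, at 10.5, 6.13 and 4.47 FPKM in the control group, and none passed. KIF12, which is expressed in kidney and liver epithelium, had 7.38, 6.69 and 5.49 CPM in the control libraries and 8.49, 8.38 and 7.43 CPM in the knockdown libraries, without overlap (log2 0.31, SE 0.12, edgeR adjusted p = 0.0536), and it passed with DESeq2 (adjusted p = 0.0459) and under 5 other alternatives (adjusted p from 0.0178 to 0.0440). KIF21A, which restrains microtubule growth at the cell cortex, had 40.3, 38.3 and 39.8 CPM against 35.6, 40.0 and 33.9 CPM (−0.11, SE 0.08). KIF7, the ciliary regulator of Hedgehog signalling, had 17.6, 16.2 and 16.7 CPM against 15.8, 16.5 and 14.1 CPM (−0.12, SE 0.09). Both KIF21A (−0.26 and −0.28, adjusted p = 0.0305 and 0.0287) and KIF7 (−0.25 and −0.29, adjusted p = 0.0479 and 0.0450) were called lower in the filtered limma tests with pseudocounts of 1 and 0.1 FPKM, respectively. KIF9 (0.23) and KIF6 (0.52, with 9 to 27 counts per library), both of motile cilia, did not pass. Of 6 markers of multiciliated cells 3 were tested (median log2 fold change 1.02), of which CFAP43 (1.02) and DNAI1 (1.497, with 1 to 13 counts per library) rose and DNAH5 (−0.20) did not pass. The summed level of all 6 was 1.59 to 1.90 FPKM in the control libraries and 1.83 to 2.33 FPKM in the knockdown libraries, and FOXJ1, their master regulator, had at most 10 counts. The part of these markers in the values of the ciliary kinesins was not tested.

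Since METTL3 writes m6A on mRNA, the 5-letter sequence GGACT, a common form of the m6A consensus, was counted in 1 reference transcript per gene (GENCODE 29). The median was 0.48 matches per kilobase for the 13 mitotic kinesins tested, 1.17 for the 14 transport kinesins and 1.04 for the 8 others, beside 0.95 for 13820 tested genes with a coding transcript. KIF20A had 1 match in 3201 bases and KIF18B 5 in 2745 bases, so the genes with the largest rises differed in this respect. The quartiles of matches per kilobase were 0.41 and 1.12 for the mitotic class and 0.57 and 1.42 for all these tested genes, so the ranges overlapped. Median transcript length was 3568 bases in the mitotic class, 5909 bases in the transport class and 3106 bases over all these genes. The median share of G and C was 44.7%, 49.8% and 49.6% in the same order. The matches are letters in a reference sequence and no measurement of methylation.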

How the data were processed

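Ribosome-depleted total RNA of 3 control and 3 METTL3 shRNA libraries was sequenced on the DNBSEQ platform, per the labels' protocols. Per the submitters' processing notes the tools were STAR 2.7.10b and Salmon and the build was GRCh38. No source used here gives the annotation release or the use of strand. The authors deposited 1 table of raw read counts per gene and 1 table of FPKM per gene, by Ensembl identifier and symbol. No label links a library letter to a replicate number.

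Counts were tested with edgeR 4.0.16 (filterByExpr with a minimum count of 10, TMM, quasi-likelihood test, Benjamini-Hochberg adjustment over all genes tested, threshold 0.05, R 4.3.3). SE is the absolute log2 fold change divided by the square root of F. FPKM were used for levels between genes and in limma 3.58.1 tests on log2(FPKM + 1) and log2(FPKM + 0.1), where genes had at least 0.5 FPKM in 3 libraries. Alternatives were other scaling, DESeq2 1.42.0, limma-voom, other filters, the column letter as a block and leaving out each library. Scripts were tested on simulated data. The kinesin classes, partner lists and tests were chosen with earlier results of these data known. Per-library values are given for the largest changes past the threshold (up to 8 in each direction), the most abundant members of each class (up to 3) and their lettered relatives. From each partner list, CENPE, up to 4 genes with the smallest p and those against the majority are named. CIT, PRC1, MKI67, PCNA, LIN9, KIFAP3, DYNC1H1, KLC1, KLC3 and KLC4, the cell type markers and further kinesins with library values were named after their values were seen. The count table lists 1292 rows whose symbol occurs more than once; genes were kept by identifier. GENCODE 29 gave positions for 42 of 42 kinesins.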

Additional observations from a re-analysis of the deposited data

How the results depend on the processing

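The mitotic kinesins were called higher in 12 cases; the number was 11 with library size scaling, 9 with limma on log2(FPKM + 1) or log2(FPKM + 0.1), 7 on log2(FPKM + 1) without a filter, and 11 to 12 when 1 library was left out. Transport kinesins higher numbered 0 with library size scaling and in the 3 FPKM tests, and 1 to 1 when 1 library was left out. Transport kinesins lower numbered 3 with library size scaling, 0 in the 3 FPKM tests, 0 where 3 libraries had to reach 1 CPM (KIF5A was then not tested), and 1 to 1 when 1 library was left out. The other kinesins changed numbered 3, 0 with limma on log2(FPKM + 1) without a filter, where KIF24 and KIF26B lost their calls, and 2 to 4 when 1 library was left out. Transport adaptors changed numbered 4, and 7 with limma on log2(FPKM + 1) or log2(FPKM + 0.1). Dynein and dynactin genes changed numbered 13, and 8 to 15 when 1 library was left out. All genes changed numbered 6270, 3271 with limma on log2(FPKM + 1) without a filter, and 4012 (without knockdown library B) to 6589 when 1 library was left out. The cause was not tested except where stated.

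Library size scaling lowered the median of all genes to −0.11 and the share of higher calls from 49.4% to 29.6%; the medians of the mitotic and transport kinesins were then 0.54 and −0.12. Kinesins whose fold change turned sign were not past the threshold in either case. With library size scaling these were KIFC2 (−0.020), KIF16B (−0.041), KIF3A (−0.053) and KIF17 (−0.042). With limma on log2(FPKM + 1), with and without a filter, they were KIFC2 (−0.030 in both), KIF16B (−0.041 in both) and KIF3A (−0.028 in both), and on log2(FPKM + 0.1) KIFC2 (−0.031), KIF16B (−0.053) and KIF3A (−0.037). When 1 library was left out, KIF5B ranged from −0.10 to 0.041, KIF3B from −0.11 to 0.0042, KIF13A from −0.065 to 0.035, KIF1B from −0.069 to 0.082, KIF17 from −0.034 to 0.27 and KIF5C from −0.29 to 0.12. Of the kinesin fold changes under all alternatives, 523 kept direction and side of the threshold, 27 lost the call, 12 gained it and 24 turned sign.

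The column letter does not pair the libraries by any label. Deviations of same-letter libraries from their group means correlated at −0.018, −0.049 and 0.17 for A, B and C. With the letter as a replicate block, 12 mitotic kinesins were higher, 1 transport kinesin higher and 1 lower, 4 other kinesins changed and 6985 genes changed in all; KIF12 was the member that gained a call.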
